A study of Mus musculus with 3 samples.

Results

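In the mouse liver, MACS called 301 CLK peaks that overlapped no BMAL1 peak and had their centre before the start or past the end of the gene to which the authors assigned them. They are called CLK only peaks outside genes here, and they came from a peak table of 2127 rows, of which 548 were CLK only. One CLK only row was left out because its gene started beyond the end of its chromosome, and the other 246 had their centre inside the assigned gene. The peaks were thus chosen by measured values, namely a CLK peak call, the lack of a BMAL1 peak call and a centre outside the assigned gene, and none of these 3 is tested below, although the score behind the call was used to split the peaks. The tests of position compare sets that all lie outside their assigned gene. CLK and BMAL1 binding was measured by ChIP-seq in the liver of adult C57BL/6 mice kept in cycles of light and dark. At ZT8, 8 h after lights on, 1 CLK ChIP library, 1 BMAL1 ChIP library and 1 Input library (chromatin with no antibody) were made from a single, shared liver extract. No value has a replicate, so each test compares peaks of these libraries and none compares animals. No expression was measured in these 3 samples, and the labelled tissue could not be checked against marker genes.

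CLK (CLOCK) and BMAL1 are transcription factors with a basic helix-loop-helix domain, which pair to form the activator at the core of the mammalian circadian clock. The pair binds the e-box, a short palindromic DNA element, and drives the genes of its own repressors as well as many genes with daily rhythms in liver metabolism. ChIP-seq with an antibody against CLK recovers DNA that is bound directly and DNA that was crosslinked to the complex in another way, and both appear as peaks.

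E-boxes lay near the summit of a minority of the CLK only peaks outside genes, and the following sequences show them. Each sequence is the plus strand of mm9 with the e-box CACGTG in capitals and 30 bases on either side. The first 3 peaks were the ones with more than 1 e-box within 100 bp of the summit, at chr1:163181376-163181486, chr7:30386565-30386674 and chr4:131472371-131472548.
Prdx6: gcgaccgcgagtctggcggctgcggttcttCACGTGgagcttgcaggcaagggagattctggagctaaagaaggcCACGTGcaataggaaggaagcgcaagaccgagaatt
4930432E11Rik: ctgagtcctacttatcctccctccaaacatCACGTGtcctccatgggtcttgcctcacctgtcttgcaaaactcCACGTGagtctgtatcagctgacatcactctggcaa
AK047558: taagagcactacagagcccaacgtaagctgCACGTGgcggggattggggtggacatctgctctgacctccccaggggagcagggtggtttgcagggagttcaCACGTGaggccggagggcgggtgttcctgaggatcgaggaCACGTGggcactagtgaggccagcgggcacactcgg
The e-boxes of Prdx6 were separated by 39 bases and those of 4930432E11Rik by 38 bases. The 3 e-boxes of AK047558 were separated by 66 and 34 bases.

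The next 5 sequences had a single e-box and were within 5000 bp of the start site listed for the assigned gene. They lay at chrX:74754708-74754773, chr4:70196051-70196116, chr2:56979931-56979996, chr2:27102356-27102421 and chr15:34012398-34012463.
Tbl1x: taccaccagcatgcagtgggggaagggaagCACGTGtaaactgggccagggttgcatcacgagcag
Megf9: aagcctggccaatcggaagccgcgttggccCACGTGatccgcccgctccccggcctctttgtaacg
Nr4a2: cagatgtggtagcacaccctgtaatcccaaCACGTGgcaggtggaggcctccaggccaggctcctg
Sardh: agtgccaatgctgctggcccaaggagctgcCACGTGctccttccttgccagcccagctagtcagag
Mtdh: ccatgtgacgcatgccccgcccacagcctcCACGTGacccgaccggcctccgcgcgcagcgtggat

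The 301 peaks were mostly close to the calling cutoff. The CLK score, the MACS p-value on a -10 log10 scale with its cutoff at 50, ran from 50.01 to 192.6 with a median of 55.7, and 195 peaks (64.8%) scored under 60. The count of CLK tags per peak had a median of 21 and an interquartile range of 19 to 25, and the peaks were 195 to 1554 bp wide. The fold enrichment over the local Input had a median of 6.35 and ran from 3.17 to 12.0. A score of at least 100 was given to 8 of the 301 peaks (2.66%), while the share among all 759 CLK peaks was 12.4%. An FDR no higher than 5% was found for 53 of them (17.6%), while the share among all CLK peaks was 21.3%. These values chose the peaks in part and are a description. The FDR of all 301 peaks lay between 4.08 and 11.5%, and the 2 peaks of highest score had the FDR values 11.54% and 11.11%.

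The peaks just past the threshold of the score had 24 tags each and a score of 50.01, and they were assigned to Olfr770, Fem1a, Odz4 and a gene with no symbol. At the gene border, the 2 peaks just outside were those of Cabc1, whose centre lay 10.5 bp from the gene (41 tags, score 79.2), and 9330129D05Rik, at 19 bp (24 tags, score 66.1). The CLK only peak closest to the border on the inner side was that of Gadd45g, 7.5 bp within the gene (41 tags, score 75.2).

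**Figure D1:**
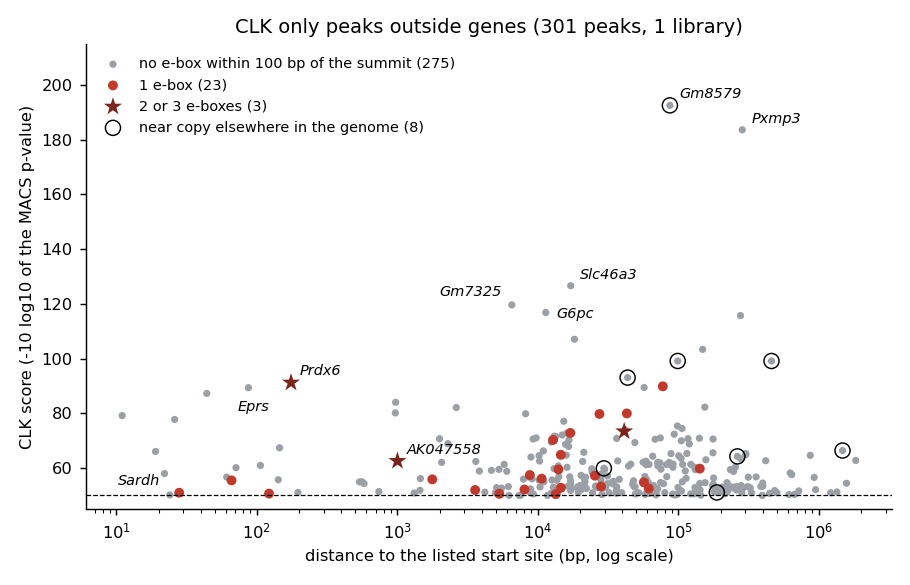
Each point is 1 of the 301 CLK only peaks outside genes, with its distance to the listed start site in bp (log scale) on the x axis and its CLK score on the y axis (dashed line, the cutoff at 50). Colored points have an e-box within 100 bp of the summit and circled points a near copy elsewhere in the genome. The 26 peaks with an e-box have scores of 50.5 to 91.2, below the 10 strongest peaks.

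None of the 10 peaks of highest score had an e-box within 100 bp of the summit, and only the peak of G6pc lay within 5000 bp of its assigned gene. The strongest, assigned to the predicted gene Gm8579, had 72 tags, a score of 192.6 and a fold enrichment of 9.39. It lay 86981 bp upstream of the listed start site. The second, assigned to Pxmp3, a gene of peroxisome assembly, had 184 tags but a fold enrichment of only 4.38 (score 183.6) and lay 284599 bp upstream. The peak of Slc46a3, a solute carrier, had 30 tags and a fold enrichment of 11.0 at 17127 bp upstream. The peak of Gm7325 had 27 tags and a fold enrichment of 11.7 at 6521 bp upstream. The peak of G6pc, the catalytic subunit of glucose-6-phosphatase that releases glucose from the liver, had 67 tags and a fold enrichment of 6.31, and its centre lay 1206.5 bp past the gene end. The remaining 5 were assigned to AK036466 (32 tags), Parp16 (37 tags), Epm2a (38 tags), Myom2 (21 tags) and 4930515G16Rik (19 tags). They lay 18208 to 459744 bp from the start site listed for the assigned gene, although the Parp16 peak lay 174.5 bp from a GENCODE start of U5. Tag counts and scores therefore did not rank these peaks alike, since peaks with 19 to 30 tags stood among the strongest by score.

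Several of these strong peaks had near copies elsewhere in the genome. The 200 bp around each summit were compared with mm9, and a near copy was a second match of at least 90% identity over at least 80% of the window. A near copy was found for 8 of the 301 peaks (2.66%, 95% interval 1.15 to 5.17), for 1 of 246 CLK only peaks inside genes (0.407%, 0.0103 to 2.24), for 0 of 117 CLK:BMAL1 peaks outside genes (upper limit 3.10%) and for 1 of 790 BMAL1 only peaks outside genes (0.127%, 0.00321 to 0.703). Among the 301 peaks, 3 of the 10 of highest score had one, and 5 of the other 291 did. The peak of 4930515G16Rik had 168 near copies, that of Myom2 had 15 and that of Gm8579 had 2, the better of which was 95.9% identical. Besides those 3, near copies were found for DQ722852, AK076805, Mc2r, Apbb1ip and A330008L17Rik. This measure was chosen after the data were seen, and the shares are given without a test. The authors kept reads that matched a single place in the genome, and the part of near copies in the height of these peaks was not tested.

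The summits of the strongest peak and of the most copied one are shown in lower case only, since no e-box lay in them. The first, at chr6:3151456-3151575, resembles the 18S ribosomal RNA gene, but it was not compared with an rRNA reference. The second lies at chr6:67614509-67614628.
Gm8579: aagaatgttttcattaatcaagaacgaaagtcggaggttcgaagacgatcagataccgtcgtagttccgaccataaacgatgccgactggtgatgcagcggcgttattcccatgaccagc
4930515G16Rik: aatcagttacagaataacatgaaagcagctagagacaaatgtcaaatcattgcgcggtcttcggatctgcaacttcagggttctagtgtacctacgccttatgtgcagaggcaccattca

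The next question was whether the sequence at these peaks carried the element of the CLK:BMAL1 pair. An e-box lay within 100 bp of the summit in 26 of the 301 peaks (8.64%, 95% Clopper-Pearson interval 5.72 to 12.4) and in the flanks, 400 to 500 bp on either side, in 2 (0.664%, 0.0806 to 2.38). The e-box was in the summit window alone in 25 peaks and in the flanks alone in 1 peak (exact McNemar test, two-sided, adjusted p = 1.21e-05 over 15 motifs). Flanks farther out, at 1000 to 1100 bp, held an e-box in 8 peaks (2.66%, 1.15 to 5.17). Against them the adjusted p was 0.0137 (exact McNemar test). Within single bins of 100 bp, 19 peaks had an e-box in the 100 bp before the summit and 8 in the 100 bp after it, and each of the 8 other bins out to 500 bp held 0 to 6. Among the 26 peaks, the nearest e-box lay at a median of 25 bp from the summit, and 10 had it within 20 bp.

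The summit windows were also richer in G and C than the flanks, with a median of 51% against 42.5%, and the part of this difference in the e-box share was not tested. The 7 other palindromes with the bases of the e-box and a central CG were found in 1 to 9 summit windows and in 0 to 4 flanks, with the highest counts for CTCGAG (9 and 2) and TGCGCA (9 and 4). TCCGGA was found in 6 and 1, and CACGTG itself in 26 and 2. The 7 other hexamers were chosen after the data were seen and were not tested.

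Compared with the other sets, the e-box was uncommon. It was found near the summit in 69 of 117 CLK:BMAL1 peaks outside genes (58.97%, 49.5 to 67.98), which is 50.3 percentage points above the CLK only peaks outside genes (Fisher's exact test, two-sided, adjusted p = 1.47e-25 over 3 pairs). It was found in 155 of 790 BMAL1 only peaks outside genes (19.6%, 16.9 to 22.6), which is 11.0 percentage points above (Fisher's exact test, adjusted p = 1.02e-05). Both sets differed from the CLK only peaks outside genes by more than counting error. The difference from BMAL1 only peaks fell to 3.96 percentage points with only peaks over 5000 bp from the listed start site (7.22% against 11.2%, Fisher's exact test, adjusted p = 0.126). That restriction was chosen after the data were seen. The difference was 5.54 percentage points among peaks with a score under 70, likewise chosen afterwards (adjusted p = 0.0282, Fisher's exact test). Among peaks with an FDR of at most 5% it was 26.2 percentage points (7.55% against 33.8%, adjusted p = 5.64e-05, same exact test). That limit kept 17.6% of the CLK only peaks outside genes, without the strongest by score, and 39.75% of the BMAL1 only peaks. It thus selected unlike parts of both lists. The CLK only peaks inside genes, with 31 of 246 (12.6%, 8.73 to 17.4), stood 3.96 percentage points above, a difference that did not pass the test (adjusted p = 0.159, same exact test), with overlapping intervals. Allowing 1 mismatch, 183 of the 301 peaks had a match (60.8%), against 116 of 117 CLK:BMAL1 peaks outside genes (99.1%). The share was 63.8% for CLK only peaks inside genes and 68.5% for BMAL1 only peaks outside genes. So loose a match is common in any DNA of this length, and no share in flanks is given. The 60.8% therefore cannot be read as an excess.

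**Figure D2:**
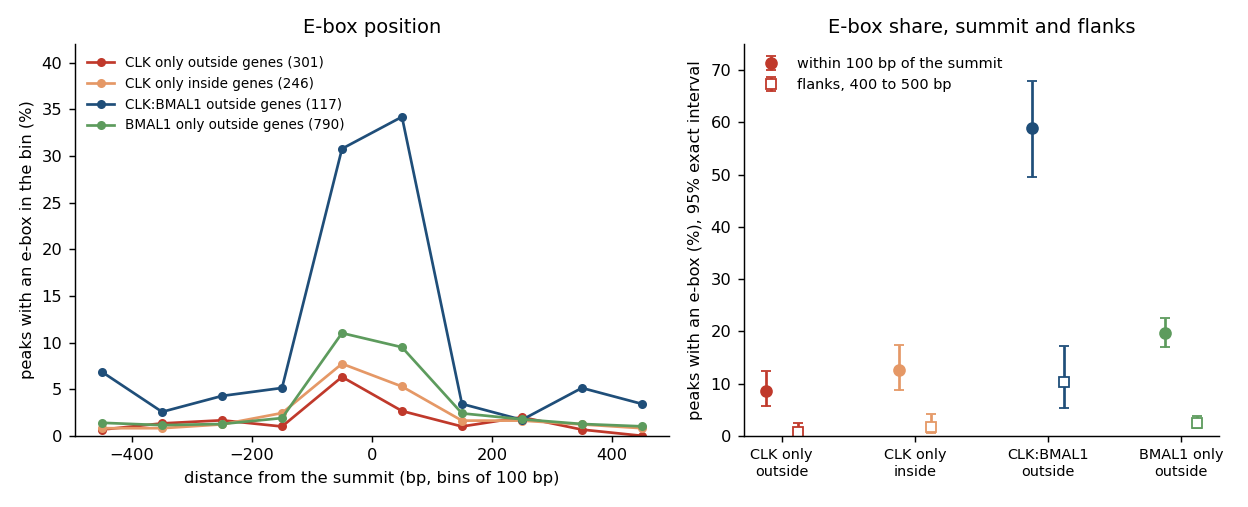
Left, the percentage of peaks with an e-box in each bin of 100 bp from the summit (x axis, bp) for 4 sets of peaks. Right, the percentage with an e-box within 100 bp of the summit (filled) and in the flanks (open) with 95% exact intervals; CLK only peaks outside genes have 8.64% and 0.664%, CLK:BMAL1 peaks outside genes 58.97% and 10.3%.

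Of the other 14 motifs, only the E'-box CACGTT, a close variant that the clock pair also binds, passed the test. It was near the summit in 13 peaks (4.32%) and in the flanks in 1 (adjusted p = 0.0137, exact McNemar test). In the exact McNemar test that call was lost with flanks at 1000 to 1100 bp (adjusted p = 0.418), within 50 bp (0.117) and without peaks in an annotated gene (0.0879). Either box was near the summit in 37 peaks (12.3%, 8.81 to 16.5), and 2 peaks, those of Krtap10-4 and Znrf2, had both. The strongest peaks with an E'-box and no e-box were those of Epm2a (score 103.4), Eprs (89.4), Errfi1 (72.1) and Foxa2 (71.0).

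No motif of a factor known as abundant in hepatocytes passed the test. The FOXA motif TGTTTNC was found near the summit in 46 peaks and in the flanks in 47. The C/EBP motif TTNNGCAA was found in 29 and 26. The nuclear receptor element AGGTCA was found in 49 and 37, the glucocorticoid receptor element AGAACA in 58 and 49, and the CCAAT box CCAAT in 73 and 71. The D-box TTANGTAA, bound by clock-controlled factors of the PAR bZIP family, was in 2 summit windows and 8 flanks. The HNF4 core CAAAGTCC, HNF1 motif GTTAATNAT, GC box GGGCGG, CRE TGACGTCA, ETS motif CCGGAAG, AP-1 motif TGANTCA and CTCF core AGGGGGC differed by 5 peaks or fewer between summit and flanks. Adjusted p ran from 0.547 to 1 over these 13 motifs (exact McNemar test). The HNF4 core (2 and 2 peaks), HNF1 motif (1 and 2) and CRE (1 and 0) were too rare to pass whatever the split. The test thus cannot decide for these motifs. Each motif was searched on both strands, and the E-box and E'-box windows were searched for each box separately.

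**Figure D3:**
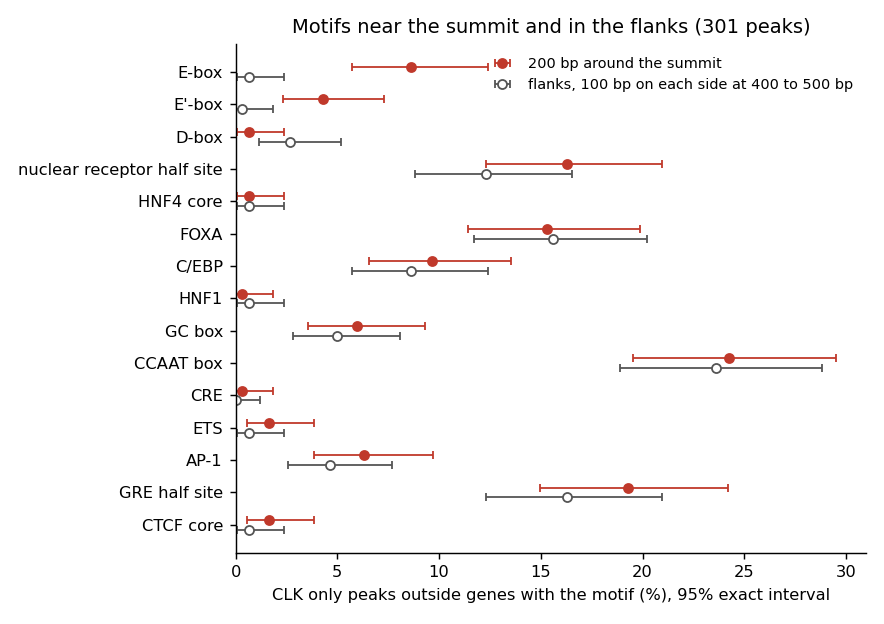
Percentage of the 301 CLK only peaks outside genes that hold each of 15 motifs in the 200 bp around the summit (filled) and in the flanks (open), with 95% exact intervals. The e-box (8.64% and 0.664%) and the E'-box (4.32% and 0.332%) are the pairs that passed the test, and the FOXA intervals overlap almost fully.

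Within the 301 peaks, no difference in e-box share by the strength of the CLK peak passed the test. All of them had passed the cutoff of the score, most scored close to it, and only 26 had an e-box. The split therefore cannot decide whether the share depends on CLK peak strength. Split at the median score, 15 of the 150 stronger peaks (10%, 5.71 to 15.96) and 11 of the 151 others (7.28%, 3.69 to 12.7) had an e-box (Fisher's exact test, two-sided, p = 0.42). The order turned when the peaks were split by fold enrichment, with 9 of 125 (7.2%) and 17 of 176 (9.66%). Peaks with an e-box had a median of 25.5 tags and a score of 56.7, and those without had 21 tags and a score of 55.7.

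The strongest peak with an e-box belonged to Prdx6, which encodes a peroxiredoxin that reduces peroxides and phospholipid hydroperoxides. It had 34 tags, a score of 91.2 and the highest fold enrichment of all 301 peaks, 12.0. Its centre lay 175 bp upstream of the start site, the nearer e-box lay 4.5 bp from the summit, and the nearest BMAL1 peak was 393622 bp away. AK047558 had 39 tags, a score of 62.6 and 3 e-boxes, one of them 0.5 bp from the summit, at 1001 bp upstream, within the GENCODE gene Gm12992. Next in score after Prdx6 among the peaks with an e-box came AK039634 (28 tags, score 89.9), Atp1b1, a subunit of the sodium pump (34 tags, 79.97), and Vegfa, the angiogenic growth factor (48 tags, 79.8). The last of these lay 12660 bp past the gene end.

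Another 5 peaks combined an e-box with a listed start site within 5000 bp. Sardh, the mitochondrial sarcosine dehydrogenase of liver, had 34 tags (score 51.0) at 28 bp upstream, with the e-box 7.5 bp from the summit. Its nearest BMAL1 peak lay 13809 bp away. Megf9 had 21 tags (score 55.5) at 66 bp upstream, and Mtdh had 20 tags (score 50.7) at 122 bp, with the e-box 64.5 and 80.5 bp from the summit, respectively. Tbl1x, a part of the nuclear receptor corepressor complex, had 19 tags (score 55.9) at 1772 bp upstream. Nr4a2, an orphan nuclear receptor, had 16 tags (score 52.0) at 3575 bp. These 5 peaks scored 50.7 to 55.9 and thus stood close to the cutoff. A further 4 peaks with an e-box were listed farther away but lay within 5000 bp of a GENCODE start site, namely Polg (43 tags, 251 bp from a Polg start), Krtap10-4, Esf1 and Rcc2.

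Most CLK only peaks outside genes were far from the start site listed for their assigned gene. The listed distance had a median of 39499 bp and an interquartile range of 12598 to 131146 bp, and 92 peaks (30.6%) lay over 100000 bp away. The farthest were the 2 peaks upstream of Pcdh17, a protocadherin, at 1829445 and 1571348 bp, followed by AK076805 (1472415 bp), Acvr2a (1342871 bp) and AK043174 (1211336 bp). The listed start site lay within 5000 bp of 38 peaks (12.6%, 9.09 to 16.9). The share was 64 of 117 (54.7%, 45.2 to 63.9) for CLK:BMAL1 peaks outside genes (Fisher's exact test, two-sided, adjusted p = 1.25e-17 over 2 pairs) and 191 of 790 (24.2%, 21.2 to 27.3) for BMAL1 only peaks outside genes (adjusted p = 1.99e-05). The share of CLK only peaks outside genes was lower by 42.1 and 11.6 percentage points. With the nearest GENCODE start site of any gene in place of the listed one, a choice made with the data already seen, 66 of the 301 peaks (21.9%, 17.4 to 27.0) lay within 5000 bp, against 61.5% and 30.8% (adjusted p = 1.02e-13 and 0.00422 by Fisher's exact test). For the listed start site, the difference from BMAL1 only peaks was 22.5 percentage points with an FDR of at most 5% (adjusted p = 0.00177, exact test). As described above, this FDR limit selected unlike parts of the CLK and BMAL1 lists. Among peaks with a score under 70, a limit chosen after the data were seen, the shares differed by 33.0 percentage points (44.4% against 11.4%) and 5.55 percentage points (17.0% against 11.4%) in the same order (Fisher's exact test, adjusted p = 2.47e-07 and 0.0387).

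**Figure D4:**
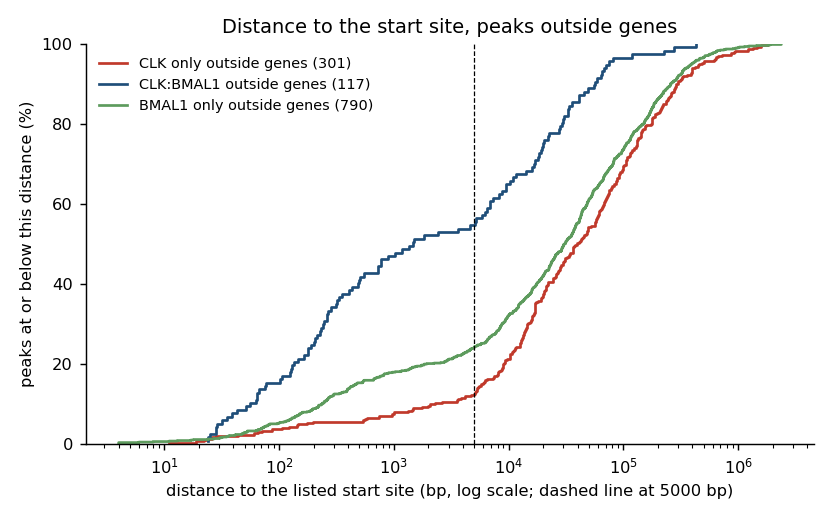
Cumulative percentage of peaks outside genes (y axis) by distance to the listed start site (x axis, bp, log scale) for the 3 sets. At 5000 bp (dashed line) the CLK only curve stands at 12.6%, the BMAL1 only curve at 24.2% and the CLK:BMAL1 curve at 54.7%.

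The 23 peaks within 1000 bp of the listed start site, all of them upstream of it, differed in sequence from the other 278. At least 10 CpG dinucleotides lay within the 200 bp around the summit in 15 of the 23 (65.2%, 42.7 to 83.6) and in 15 of the 278 (5.396%, 3.05 to 8.74), and a GC box was found in 12 and in 6 of them. An e-box was found in 4 of the 23 (17.4%, 4.95 to 38.8) and in 22 of the 278 (7.91%, 5.03 to 11.7), with overlapping intervals. These splits were made after the data were seen and were not tested. Behind Prdx6 in score came Eprs, the glutamyl-prolyl-tRNA synthetase (41 tags, score 89.4, 87 bp from the start), and Mrs2, a mitochondrial magnesium channel (34 tags, score 87.3, 44 bp). Others were Serpinc1, which encodes antithrombin and is secreted by the liver (26 tags, 26 bp), Leap2, a liver-expressed peptide hormone (35 tags, 71 bp), P4hb, the protein disulfide isomerase (32 tags, 559 bp), Dpyd, the first enzyme of pyrimidine breakdown (20 tags, 22 bp), and Ivd, of leucine breakdown (18 tags, 24 bp). The peak assigned to Gtf3c6 (30 tags, 967 bp) lay in an annotated U3 snoRNA.

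On their strand, 172 of the 301 peaks lay upstream of the assigned gene (57.1%, 51.3 to 62.8) and 129 past its end. The upstream share was 97 of 117 (82.9%, 74.8 to 89.2) for CLK:BMAL1 peaks outside genes (Fisher's exact test, two-sided, adjusted p = 8.65e-07 over 2 pairs) and 545 of 790 (69.0%, 65.6 to 72.2) for BMAL1 only peaks outside genes (adjusted p = 0.000272). The upstream share of CLK only peaks outside genes was lower by 25.8 and 11.8 percentage points. The authors assigned peaks outside genes to the closest start site, which favours the upstream side in every set. Of the 38 CLK only peaks within 5000 bp of the listed start site, 36 lay upstream. The test of the side is therefore not independent of the test of the distance. Among peaks over 1000 bp from the listed start site the difference from CLK:BMAL1 peaks was 15.8 percentage points (adjusted p = 0.0242, exact test). Both calls were lost among peaks over 5000 bp from the listed start site, a choice made after the data were seen. There the upstream share was 51.7% for CLK only, 64.2% for CLK:BMAL1 and 59.4% for BMAL1 only (Fisher's exact test, adjusted p = 0.13 and 0.0733).

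Within 2000 bp past the gene end there were 15 CLK only peaks (4.98%, 2.82 to 8.09), 5 of 117 CLK:BMAL1 peaks outside genes (4.27%, 1.40 to 9.69) and 10 of 790 BMAL1 only peaks outside genes (1.27%, 0.609 to 2.32). This limit was chosen after the data were seen, and the shares are given without a test. None of the 15 peaks had an e-box (upper limit of the exact interval 21.8%). The group held liver genes and others, such as Tacr3 and Mtnr1b, which encode receptors for a neuropeptide and for melatonin. A run of 3 peaks lay behind Alb, which encodes serum albumin, at 221, 843 and 1389 bp past its end, with 23, 31 and 19 tags and scores of 64.7, 67.9 and 51.8. Gaps of 200 and 148 bp separated them. Tat, the tyrosine aminotransferase, had a peak of 38 tags (score 71.0) at 365.5 bp. G6pc had the peak of 67 tags described above. Errfi1, a feedback inhibitor of EGF receptor signaling, had the widest peak of all 301, with 1554 bp and 119 tags (score 72.1) at 1098.5 bp, and a second of 1111 bp and 81 tags (score 54.1) at 3342 bp. Ccnd1, encoding cyclin D1, had 42 tags (score 50.04) at 1711 bp. The peaks of Tacr3, Mtnr1b, Chi3l3, Serpinb9b, Z83816 and AK076849 had 18 to 32 tags, and 2 further peaks had no gene symbol. Besides Alb and Errfi1, 2 peaks each were assigned to Pcdh17, Olfr541, 4930402H24Rik and Dusp10, but these lay 7345 to 481203 bp apart.

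The summits of the G6pc peak, at chr11:101240460-101240579, and of the strongest Alb peak, at chr5:90906445-90906564, are shown as examples without an e-box. Capitals mark a match to any of the 15 motifs, which is the nuclear receptor element AGGTCA in G6pc and a CCAAT box on the minus strand in Alb, and neither motif was more frequent near summits than in flanks by the test.
G6pc: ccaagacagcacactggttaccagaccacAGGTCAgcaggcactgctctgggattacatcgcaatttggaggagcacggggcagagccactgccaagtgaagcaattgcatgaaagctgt
Alb: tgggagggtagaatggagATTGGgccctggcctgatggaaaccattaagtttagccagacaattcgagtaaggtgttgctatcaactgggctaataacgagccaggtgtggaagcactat

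**Figure D5:**
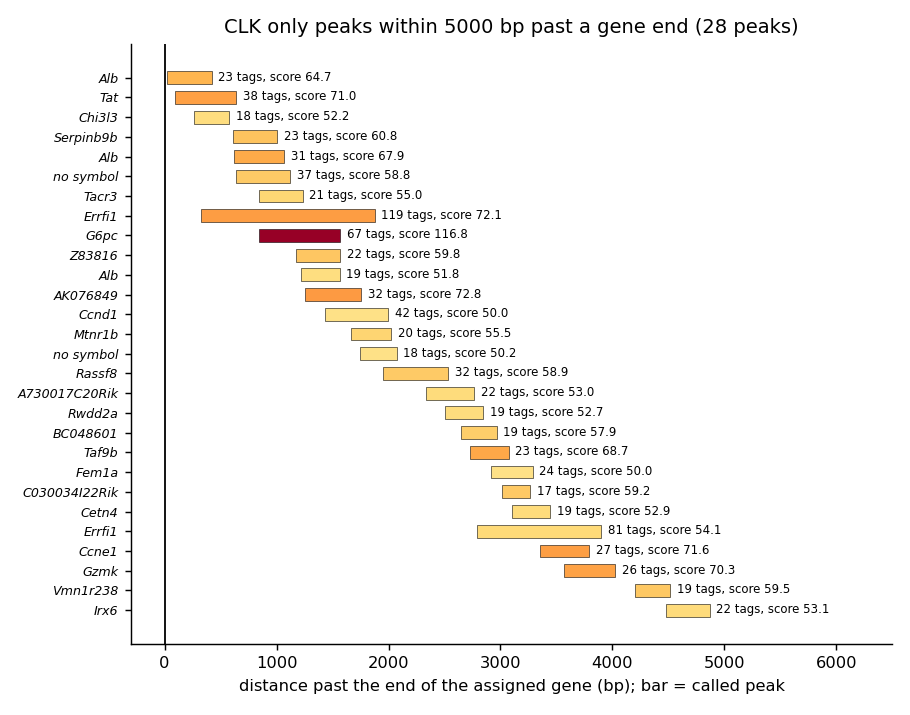
The 28 CLK only peaks within 5000 bp past the end of their assigned gene, ordered by distance. Each bar spans a called peak (x axis, bp past the gene end), darker bars have a higher CLK score, and the tags and score stand beside it; the 3 Alb peaks lie at 221 to 1389 bp and the widest bars are those of Errfi1.

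Some of these genes also had CLK peaks within the gene. Alb had 4 CLK only peaks inside the gene, with 19 to 50 tags, and 3 CLK:BMAL1 peaks, with 32 to 71 tags. Tat had 3 CLK only peaks inside (38 to 56 tags) and a CLK:BMAL1 peak of 231 tags and a score of 536.5. G6pc had 1 CLK only peak inside, of 62 tags, at 324 bp from the start, and Errfi1 had 1 of 88 tags at 136 bp. Of the 281 named genes of the CLK only peaks outside genes, 15 (5.34%) had a CLK only peak inside the gene. A BMAL1 only peak outside the gene was assigned to 31 of them (11.0%), from a set of 790 peaks. CLK:BMAL1 peaks outside genes were assigned to 4 of them (1.42%), Ccne1, Maf, Vegfa and Zeb1. The same shares were not computed for other genes, so these counts are a description only.

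Genes of 4 lists were looked up among the assigned genes. Of 34 clock and clock-controlled genes, none had a CLK only peak outside the gene, whereas 13 had a CLK:BMAL1 peak and 5 a BMAL1 only peak outside the gene. A CLK only peak inside the gene was found for 4 of them, Alas1, Cry2, Per1 and Rora. Clock-list genes took 1.98% of all peaks of the table. Of 67 genes of plasma proteins, 2 (Alb and Serpinc1) had 4 of the 301 peaks, and 5 had CLK only peaks inside the gene. They took 1.33% of the 301 peaks and 0.706% of all peaks of the table. Of 35 genes of lipid and bile acid metabolism, only Thrsp, a regulator of fatty acid synthesis, had a peak, with 29 tags (score 62.4) at 3615 bp upstream. This list took 0.332% of the 301 peaks and 0.612% of all peaks of the table. Of 36 genes of glucose and amino acid metabolism, G6pc and Tat were among those with a peak, and 8 had CLK only peaks inside the gene. Genes of that list took 0.997% of the 301 peaks and 1.18% of all peaks of the table.

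The 301 peaks were chosen to overlap no BMAL1 peak. The nearest BMAL1 peak lay at a median of 442051 bp, and 15 peaks (4.98%, 2.82 to 8.09) had one within 10000 bp. Other sets had similar distances. For CLK only peaks inside genes the median was 418376 bp, with 8.54% within 10000 bp. From BMAL1 only peaks outside genes, the next BMAL1 peak lay at a median of 451555 bp, with 4.18% within 10000 bp. Among the 301 peaks, the closest BMAL1 peak was 90 bp from the peak of N4bp1 (23 tags, score 61.2). The next were 1773 bp from an Alb peak and 2317 bp from that of Thrsp. The gap of 90 bp at N4bp1 was shorter than the narrowest of the 301 peaks, at 195 bp.

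The assignment to a place outside genes depended on the annotation. In GENCODE M1, 49 of the 301 centres (16.3%, 12.3 to 20.9) lay within a gene, of which 37 were within protein-coding genes, 6 within lincRNA genes and 2 within snoRNA genes. The assigned symbol was that of the nearest GENCODE start site for 136 peaks (45.2%), and 13 peaks had no symbol. Chromosome X, of 166.7 Mb, held 3 of the 301 peaks (0.997%), while the autosomes held 7 to 27 each. A low X count was not particular to this set. Inside genes, X held 0 of 246 CLK only peaks, 0 of 94 shared CLK:BMAL1 peaks and 0 of 577 peaks with BMAL1 alone. Outside genes, it held 1 of 117 shared peaks (0.855%) and 4 of 790 with BMAL1 alone (0.506%). These counts were not tested.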

How the data were processed

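Liver chromatin was measured by ChIP-seq in 1 CLK, 1 BMAL1 and 1 Input library at ZT8. The authors mapped 36 nt reads to mm9 with bowtie (CASAVA 1.6 is also named in the submitters' processing notes), discarded reads with more than 1 position and called peaks per ChIP library against the Input with MACS at a p-value cutoff of 1e-05. Per the file headers, the libraries held 37371047 (CLK), 28920754 (BMAL1) and 18846303 (Input) tags. The deposited lists give the count of tags, the score, the fold enrichment (a ratio to the local Input) and the FDR as a percent. The deposited table gives the class, gene and distance in bp.

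Peaks of the table were joined to the CLK list by position. Sequences came from NCBIM37 (mm9) and gene positions from GENCODE M1. Summit windows were 200 bp long. Near copies were sought with blastn 2.17.0. Shares of peaks have exact 95% Clopper-Pearson intervals, which hold for the counting error of peaks alone because each antibody has a single library. Fisher's exact and exact McNemar tests (scipy 1.17.1) with Benjamini-Hochberg adjustment were two-sided and were tested on simulated data. The peaks, lists and tests were chosen with earlier results of these data known. Named peaks were the 10 of highest score, those of listed genes, those with an e-box within 5000 bp of a start site, genes with 2 or more peaks, the lowest scores, the gene border, the 5 farthest and the 3 closest to a BMAL1 peak; other named peaks were chosen after their values were seen. Alternatives covered windows, distances, an FDR limit, 1 peak per gene, annotation and mismatches. Some results on listed genes and on peaks at the gene border are not reported here.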

Additional observations from a re-analysis of the deposited data

How the results depend on the processing

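Calls at the threshold of 0.05 kept their side and direction as follows. The e-box differences did so with a window of 50 bp, the peak centre, an FDR of at most 5%, 1 peak per gene, no peak in an annotated gene and 1 mismatch. The start site differences did so with limits of 1000 and 10000 bp, the FDR limit and 1 peak per gene, and the upstream differences with 1 peak per gene and with peaks over 1000 bp from the start site. The FDR limit selected unlike parts of the CLK and BMAL1 lists. The e-box excess over the flanks did so with far flanks, a window of 50 bp and no peak in an annotated gene, and was 5.65 to 8.19 percentage points over its alternatives. Restricting the sets to peaks over 5000 bp from the listed start site, added after the data were seen, ended 3 calls. The e-box difference from BMAL1 only peaks became -3.96 percentage points, and the upstream differences from CLK:BMAL1 and BMAL1 only peaks became -12.4 and -7.72 percentage points. The cause was not tested. The E'-box excess fell to 2.33 percentage points with far flanks and with a window of 50 bp, and to 3.57 without peaks in annotated genes, and its call was lost each time. No paired analysis was possible because each group has a single library, and only windows of the same peak were paired. With a median of 21 tags per peak, sites near the cutoff could not be checked in a second sample.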
